A study of Mus musculus with 8 samples.

Results

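MHC class II antigen presentation was followed through 9 genes: the class II chains H2-Aa, H2-Ab1 and H2-Eb1, the peptide-exchange subunits H2-DMa and H2-DMb1, the invariant chain Cd74, the transactivator Ciita, the protease Ctss and the costimulator Cd86. They were picked by name from the 46517 genes that each file lists, and all 9 were found and had enough reads to be tested. Whole kidneys of 8 mice were sequenced as mRNA, 4 Control and 4 conditional knockout (cKO). All 8 mice were Xpr1lox/lox, with exon 2 of Xpr1 floxed, and were given doxycycline in their water (2 mg/ml) for 2 weeks, starting at 8 weeks of age. In addition, cKO mice carried Pax8-rtTA, a doxycycline-dependent activator expressed in renal tubule cells, and LC1, which places Cre recombinase under that activator, while Control mice were littermates without them. Loss of Xpr1 and presence of rtTA and Cre therefore cannot be told apart, and the strain background is not given in the sources used here.

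MHC class II molecules carry peptides from the endosomal pathway to the surface, where CD4+ T cells read them. An alpha and a beta chain assemble on the invariant chain, which blocks the groove and steers the complex to endosomes. Cathepsin S, the product of Ctss, trims the invariant chain to a short remnant, and the H2-DM heterodimer exchanges that remnant for antigenic peptide. Transcription of most of these genes depends on CIITA, a coactivator recruited to a composite promoter element. In the kidney, macrophages and dendritic cells carry class II constitutively, and tubule epithelium can acquire class II in inflammation.

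The promoters of H2-Aa and H2-Eb1 are shown because they hold the letters of that composite element side by side. RefSeq windows of 300 bases (250 before and 50 after a gene start, build GRCm38.p6, reference sequence and not that of these mice) were at hand for 5 of the 9 genes: H2-Aa, H2-Eb1, H2-DMa, H2-DMb1 and Ctss. Capitals mark CTNGNAACT, chosen after the windows were seen to cover the X box, and GATTGG, the Y box, whose reverse complement holds CCAAT. The H2-Aa stretch is chr17:34287857-34287917 on the minus strand and the H2-Eb1 stretch is chr17:34305763-34305822 on the plus strand.
H2-Aa: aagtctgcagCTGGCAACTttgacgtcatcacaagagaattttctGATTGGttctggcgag
H2-Eb1: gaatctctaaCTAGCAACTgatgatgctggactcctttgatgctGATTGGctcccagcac
The first motif begins 84 bases before the gene start in H2-Aa and 94 bases in H2-Eb1, and the gap between the motifs is 26 and 25 bases. H2-DMb1 holds the same pair with a gap of 26 bases, beginning 97 bases before its RefSeq start. That stretch, chr17:34153084-34153144, overlaps an exon in the GENCODE vM21 annotation, where the gene starts farther upstream, so its letters are not printed. The pair on the gene's strand, with a gap of 10 to 40 bases, occurred in 7 of the 32851 windows of all genes (0.0213%), and 3 of those 7 belong to these class II genes. Because CTNGNAACT was chosen with the members' windows in view, its presence in them was fixed beforehand. The share is therefore a description and not a test of enrichment. On either strand, CTNGNAACT alone was in 4.1% of all windows and GATTGG alone in 16.1%. GATTGG was also in a window of H2-DMa. Ctss held neither, but its window held GAAA, any 2 bases and GAAA, the core of interferon-response elements, found in 3.44% of all windows on either strand. A match describes letters, and no binding was measured.

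Each mouse gave 1 library, with 20366113 to 26155030 reads assigned to genes. Levels are given as CPM, the reads of a gene relative to the library's total, scaled by TMM factors. Xpr1 was at 80.2 to 126 CPM in Control and 5.74 to 26.5 CPM in cKO libraries, so every library followed its label at this gene, with reads counted over the whole gene and not over the floxed exon alone. Kidney markers of the proximal tubule (Slc34a1, Lrp2), thick limb (Umod, Slc12a1), distal tubule (Slc12a3), collecting duct (Aqp2) and podocyte (Nphs1) were all detected. Libraries differed in their lean to short or long transcripts. The slope of log2 CPM, relative to the Control mean, per doubling of exonic length was -0.532 in KO16 and -0.26 in KO20, which favour short transcripts, 0.218 in C11, and between -0.148 and 0.17 in the other 5. The members span 1358 bases (Ctss) to 9535 bases (Ciita) of exonic length. In whole-kidney RNA, fewer cells of a type and less RNA per cell cannot be told apart.

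A further difference between libraries touches the class II region itself. H2-Ea-ps, the alpha-chain gene annotated as a polymorphic pseudogene at chr17:34341959-34344645, had 478 reads in C11 and 775 reads in C14. It had 0 reads in C10, C13, KO16 and KO19, 1 in KO20 and 9 in KO18. For a library with 0 reads, counting error alone allows up to 3 reads, or 0.0909 to 0.159 CPM. As background, mouse strains differ in whether this gene makes a transcript, and in C57BL/6 mice it makes none. C11 and C14 therefore stood apart from the other 6 libraries at this gene, both of them Control. Its part in the counts of the neighbouring class II genes was not tested, and values without both libraries follow.

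**Figure D1:**
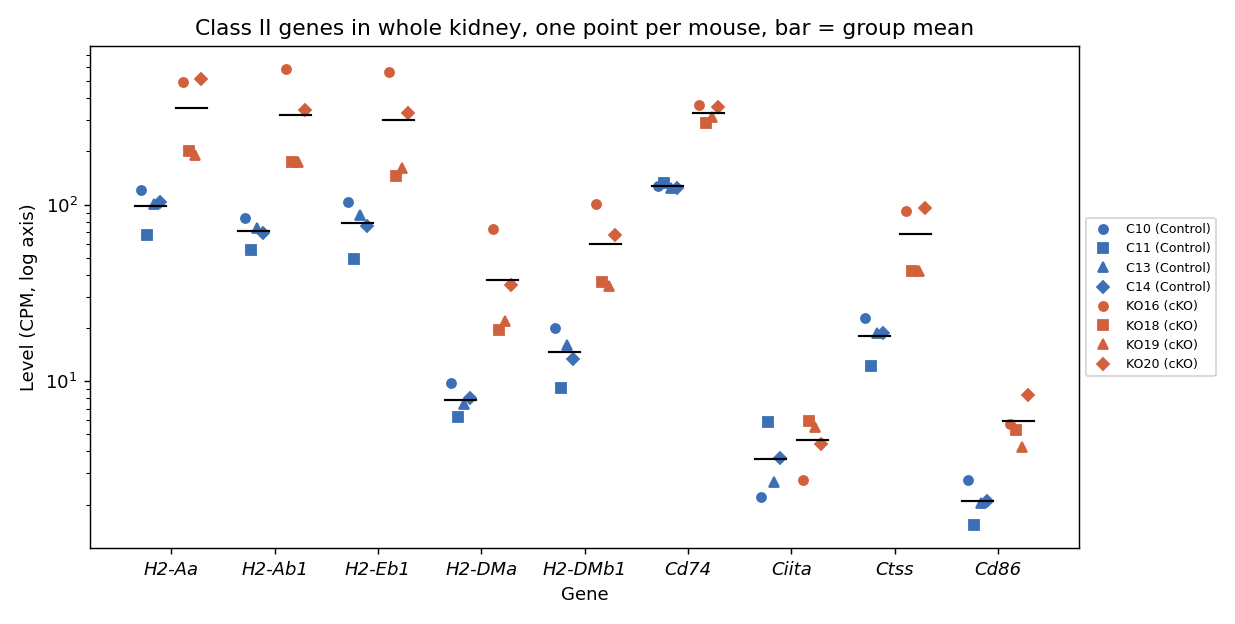
Level of each of the 9 class II genes (CPM, log axis) in the kidney of each mouse; blue points are Control, red points cKO, bars are group means over 4 mice. The groups are apart for every gene other than Ciita, and KO16 and KO20 lie above KO18 and KO19 for the chains.

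In all, 8 of these 9 genes were higher in cKO kidneys, and none was lower. Of all 15382 genes tested, 7.5% were higher by the same rule (edgeR quasi-likelihood test, Benjamini-Hochberg adjusted p under 0.05), 6.61% were lower, and 14.1% changed in either direction. The same 8 genes had groups that did not overlap with cKO above Control, as did 11.2% of all tested genes. The median log2 fold change of the 9 was 1.91, against 0.00664 over all tested genes. The labels name the mice as separate animals and give no batch or litter, so these p-values measure the spread between these libraries.

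All 3 classical chains rose. H2-Aa (ENSMUSG00000036594, chr17:34282744-34287823), the alpha chain of the I-A molecule, was at 122, 66.9, 101 and 104 CPM in C10, C11, C13 and C14, and at 492, 202, 192 and 516 CPM in KO16, KO18, KO19 and KO20. H2-Ab1 (ENSMUSG00000073421, chr17:34257689-34269419), its beta chain partner, was at 83.8, 55.4, 73.5 and 69.0 CPM in Control and 588, 175, 174 and 345 CPM in cKO libraries, in the same order of mice. H2-Eb1 (ENSMUSG00000060586, chr17:34305867-34316674), the beta chain of I-E, was at 104, 49.1, 87.0 and 75.6 CPM against 567, 145, 161 and 329 CPM. For all 3 chains the lowest cKO library stood above the highest Control library, C11 was the lowest and C10 the highest Control library, and KO16 and KO20 stood well above KO18 and KO19. The log2 fold change was 1.83 for H2-Aa (SE 0.39, adjusted p = 0.0143), 2.19 for H2-Ab1 (SE 0.41, adjusted p = 0.00848) and 1.93 for H2-Eb1 (SE 0.46, adjusted p = 0.0234). These sizes depended on KO16 and KO20. Without both libraries they were 0.995, 1.3 and 0.946, with adjusted p = 0.0303, 0.00567 and 0.0626, when 8.17% of all tested genes were higher. Without C11 as well they were 0.817, 1.17 and 0.744, all past the test, when 29.5% of all tested genes were higher. The call of H2-Eb1 was also lost without C11 (adjusted p = 0.0566), C13 (0.0705), C14 (0.0743) or KO20 (0.0655), and that of H2-Aa without C13 (0.0527).

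The peptide-exchange subunits rose with the chains. H2-DMa (ENSMUSG00000037649, chr17:34119541-34139101), the alpha subunit, was at 9.79, 6.26, 7.43 and 7.98 CPM in Control and at 72.7, 19.6, 22.0 and 35.0 CPM in cKO libraries. H2-DMb1 (ENSMUSG00000079547, chr17:34153072-34160230), a beta subunit, was at 19.9, 9.15, 16.1 and 13.4 CPM against 101, 36.3, 34.5 and 67.2 CPM. The groups did not overlap for either gene, and KO16 was the highest library for both. The log2 fold change was 2.25 for H2-DMa (SE 0.43, adjusted p = 0.00884) and 2.03 for H2-DMb1 (SE 0.40, adjusted p = 0.0109). Without KO16 and KO20 these were 1.40 and 1.27 (adjusted p = 0.007 and 0.0293). H2-DMb1 has a related neighbour, H2-DMb2, so reads in the stretches they share may not have been assigned to either, and how much they share was not examined.

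Cd74 (ENSMUSG00000024610, chr18:60803848-60812652), which encodes the invariant chain, varied least between mice of a group. It was at 127, 133, 124 and 124 CPM in Control and at 369, 290, 313 and 355 CPM in cKO libraries. The coefficient of variation was 3.18% in Control and 10.9% in cKO, against 16.8% to 29.2% and 50.7% to 65.3% for the classical chains. Its log2 fold change of 1.39 (SE 0.18, adjusted p = 0.00172) was below that of every class II chain and DM subunit, yet its adjusted p was the smallest of the 9 genes. It was at 1.24 without KO16 and KO20 and at 1.23 without C11 as well, so here the size hardly moved. Cd74 was past the test in all 19 alternative analyses, the only one of the 9 for which this held.

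Ctss (ENSMUSG00000038642, chr3:95526786-95556403) was at 22.7, 12.1, 18.7 and 18.8 CPM in Control and at 91.5, 42.3, 42.2 and 95.5 CPM in cKO libraries. Its order of libraries was that of H2-Aa, with C11 lowest in Control and KO20 highest in cKO. The log2 fold change was 1.91 (SE 0.35, adjusted p = 0.00787), or 1.22 without KO16 and KO20 (adjusted p = 0.0187). Cd86 (ENSMUSG00000022901, chr16:36603869-36666081), the B7-2 ligand that costimulates T cells through CD28, was low in every library, at 2.75, 1.52, 2.04 and 2.08 CPM in Control and 5.74, 5.28, 4.24 and 8.39 CPM in cKO. These levels rest on 38 to 57 reads per Control library and 108 to 199 per cKO library. Cd86 rose by 1.49 (SE 0.29, adjusted p = 0.0100), or 1.18 without KO16 and KO20 (adjusted p = 0.0265).

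Ciita (ENSMUSG00000022504, chr16:10480059-10528418), the master transactivator of this gene set, was the member that did not pass. It was at 2.22, 5.86, 2.69 and 3.68 CPM in Control and at 2.76, 5.98, 5.51 and 4.43 CPM in cKO libraries, from 46 to 187 reads each. The groups overlapped widely, with C11 the highest Control library and KO16 the lowest cKO library, while at all 3 chains C11 was the lowest Control library and KO16 stood above KO18 and KO19. The log2 fold change was 0.37 (SE 0.36, adjusted p = 0.568). Ciita is also the longest of the 9 genes, and C11 and KO16 are the libraries that lean most to long and to short transcripts. Over all 8 libraries, however, Ciita was lowest in C10 and highest in KO18. With the length trend of each library removed its log2 fold change was 0.556 (adjusted p = 0.13). With KO16, KO20 and C11 all left out it rose past the test, at 0.961 (adjusted p = 0.00348), when 29.5% of all tested genes were higher. The direction was the same in all 19 alternatives, and the test was passed in that 1 alone.

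**Figure D2:**
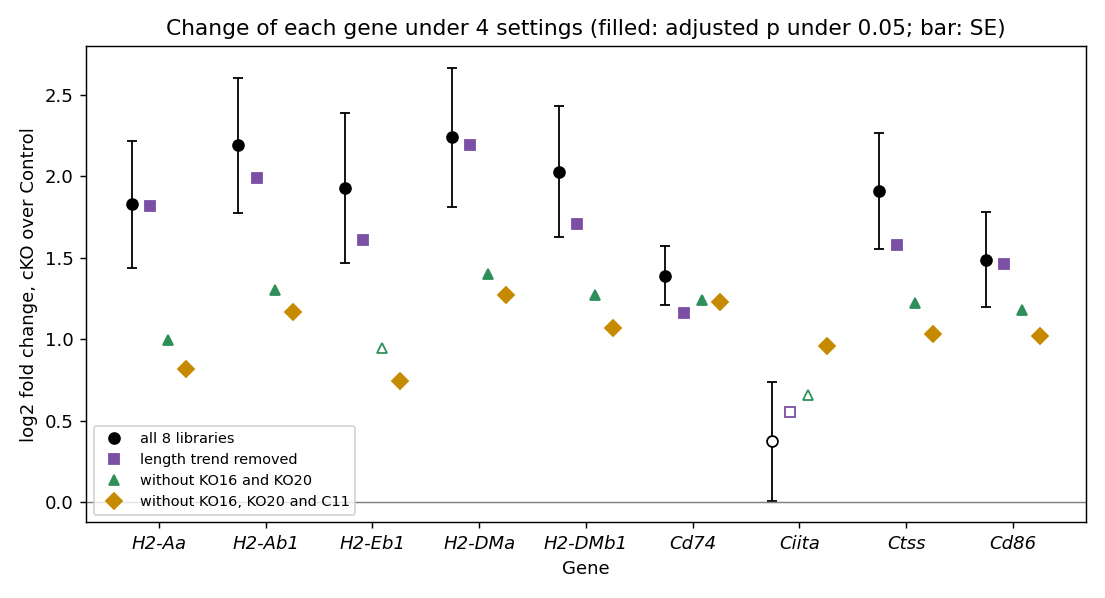
Log2 fold change (cKO over Control) of each of the 9 genes with all 8 libraries (black, bar is the SE), with the length trend removed (purple), without KO16 and KO20 (green) and without KO16, KO20 and C11 (ochre). Filled symbols have an adjusted p under 0.05; the values of the chains fall from 1.83 to 2.19 with all libraries to 0.744 to 1.17 in the smallest set, and that of Cd74 stays between 1.16 and 1.39.

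Removing the length trend left all 8 calls in place, with log2 fold changes of 1.82 for H2-Aa, 1.99 for H2-Ab1, 1.61 for H2-Eb1, 2.19 for H2-DMa, 1.71 for H2-DMb1, 1.16 for Cd74, 1.58 for Ctss and 1.46 for Cd86. Without C11 and C14, the libraries with H2-Ea-ps reads, 1 of the 9 genes passed (Cd74, 1.39, adjusted p = 0.0466), while 1.7% of all tested genes were higher in that comparison of 2 against 4 mice. The sizes moved less than the calls: the median of the 9 was 1.63, with H2-Aa at 1.63 (adjusted p = 0.151), H2-Ab1 at 2.01 (0.121), H2-Eb1 at 1.63 (0.212), H2-DMa at 2.09 (0.119), H2-DMb1 at 1.71 (0.129), Ctss at 1.69 (0.104) and Cd86 at 1.28 (0.122).

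Per kilobase of exonic length, the order of the levels was the same in both groups: Cd74, H2-Eb1, H2-Ab1, H2-Aa, Ctss, H2-DMb1, H2-DMa, Cd86 and Ciita. Cd74 led at 75.6 ± 2.4 CPM per kb in Control and 198 ± 21.6 in cKO (SD, n = 4 mice each). H2-Eb1 followed at 40.6 ± 11.9 and 155 ± 101 CPM per kb, H2-Ab1 at 27.4 ± 4.6 and 125 ± 76.2, and H2-Aa at 25.9 ± 6.03 and 92.3 ± 46.8. In Control kidneys H2-Ab1 and H2-Aa differed by less than their spread, and in cKO kidneys each neighbouring pair from Cd74 to H2-DMb1 in this order did. Ctss stood at 13.3 ± 3.23 and 49.96 ± 21.8 CPM per kb. The DM subunits were lower still, H2-DMb1 at 8.71 ± 2.70 and 35.5 ± 18.6 and H2-DMa at 2.28 ± 0.427 and 10.8 ± 7.11 CPM per kb. Cd86 (0.574 ± 0.137 and 1.61 ± 0.483) and Ciita (0.379 ± 0.169 and 0.49 ± 0.15 CPM per kb) closed the order. By these levels Cd74 stood above 95.8% of all tested genes in Control and 98.6% in cKO kidneys, and Ciita above 13.2% and 13.5%.

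Ratios between single genes within a library, which do not depend on the scaling, were compared in a family of 10 by exact two-sided permutation tests over the 8 mice. The smallest p that 4 against 4 mice allow is 0.0286, and 0 of the 10 ratios passed after Benjamini-Hochberg adjustment. Even a ratio at that smallest p could not pass unless most of the 10 reached it too, so not passing says little here. Between partners of a heterodimer, the log2 ratio of H2-Aa to H2-Ab1 was 0.465 ± 0.138 in Control and 0.168 ± 0.343 in cKO (SD, n = 4 each, exact permutation p = 0.143, adjusted 0.238). It was lowest in KO16, at -0.256. The ratio of H2-DMa to H2-DMb1 was -0.853 ± 0.26 and -0.737 ± 0.217 (exact permutation p = 0.486, adjusted 0.54). H2-DMb1 to H2-Ab1 was at -2.30 ± 0.226 and -2.38 ± 0.118 (exact permutation p = 0.6, n = 4 each). These values do not show equal change, since a shift of the size of these SDs could be missed.

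Ciita relative to H2-Ab1 was at a log2 ratio of -5.19, -3.22, -4.73 and -4.20 in C10, C11, C13 and C14 and of -7.69, -4.85, -4.96 and -6.26 in KO16, KO18, KO19 and KO20. The group difference was -1.61 (exact permutation p = 0.114, adjusted 0.229), and the groups overlapped through C10. With the length trend removed it was -1.3 (adjusted 0.0714), and without KO16, KO20 and C11 it was -0.199, so its size rested on those libraries. Cd86 to H2-Ab1 differed by -0.565 (exact permutation p = 0.0857, adjusted 0.229) and Cd74 to H2-Ab1 by -0.629 (exact permutation p = 0.171, adjusted 0.245). Without KO16 and KO20 these were -0.152 and -0.0767, and Cd86 to H2-Ab1 was at -0.208 without KO16 alone.

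**Figure D3:**
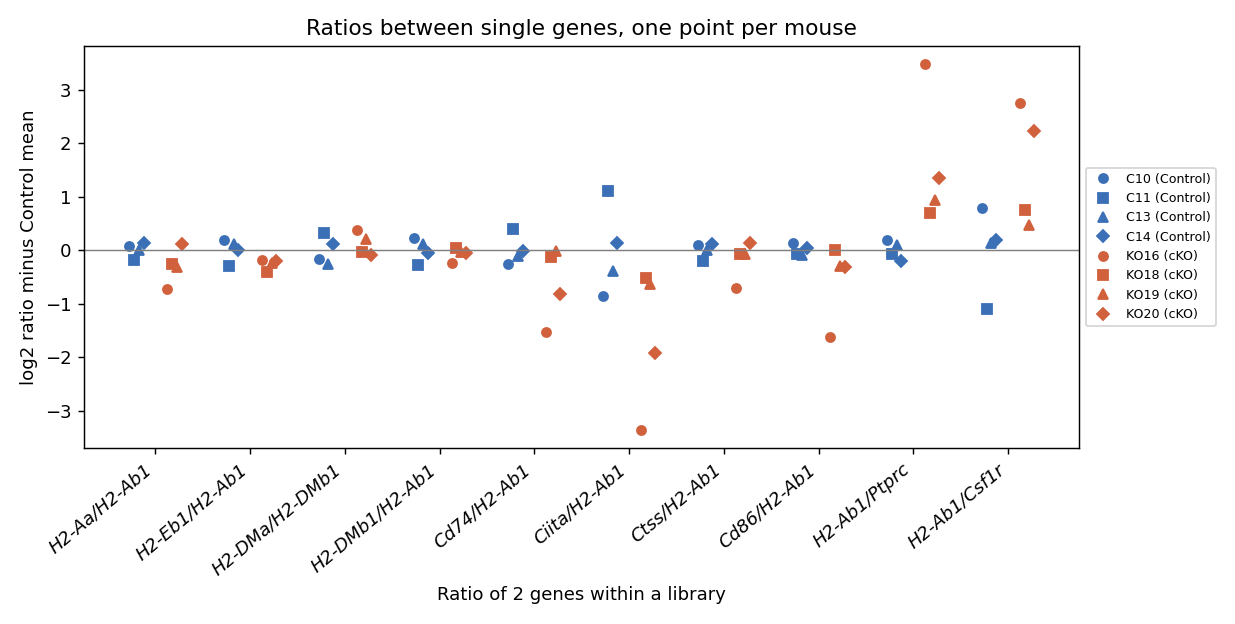
Log2 ratio of 2 genes within each library, minus the Control mean of that ratio; blue points are Control mice and red points cKO mice. For ratios among class II chains and DM subunits the group differences lie between -0.297 and 0.115, with H2-Aa over H2-Ab1 lowest in KO16. The ratio of Ciita to H2-Ab1 lies lowest in KO16 and KO20, and all 4 cKO mice lie above the Control mice for H2-Ab1 over Ptprc.

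H2-Ab1 was also set against Ptprc, the pan-leukocyte gene CD45, and Csf1r, the receptor of macrophage colony-stimulating factor. The log2 ratio of H2-Ab1 to Ptprc was 2.22 ± 0.176 in Control and 3.83 ± 1.27 in cKO (SD, n = 4 each), higher in 4 of 4 cKO mice than in any Control mouse (exact permutation p = 0.0286, the smallest possible, adjusted 0.229). The difference of 1.61 was 0.806 without KO16 and KO20. H2-Ab1 to Csf1r differed by 1.54 (exact permutation p = 0.0857, adjusted 0.229), and by 0.236 without KO16, KO20 and C11. Ptprc has 18313 bases of exonic sequence against 2568 for H2-Ab1. With the length trend removed the differences were 1.26 against Ptprc and 1.33 against Csf1r (adjusted 0.0714 for both).

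Of the 9 genes, 5 lie together on chromosome 17, in a stretch from H2-Oa to H2-Ea-ps (chr17:34092340-34344645) that holds 19 annotated genes, 13 of them tested. All 5 were higher in cKO kidneys. Of the 8 other tested genes there, 1 was higher (H2-Oa, the alpha subunit of the DM modulator H2-DO), 0 were lower and 7 did not pass. The 5 that belong to other families, Brd2 (0.31), Tap1 (0.61), Tap2 (0.49), Psmb8 (1.19) and Psmb9 (0.71), did not pass, with a median log2 fold change of 0.609. H2-DMb2 was at 1.28 (adjusted p = 0.0948) and H2-Ob, the beta subunit of H2-DO, at 0.73 (adjusted p = 0.226). H2-Eb2 had 44 reads over all libraries and was not tested.

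**Figure D4:**
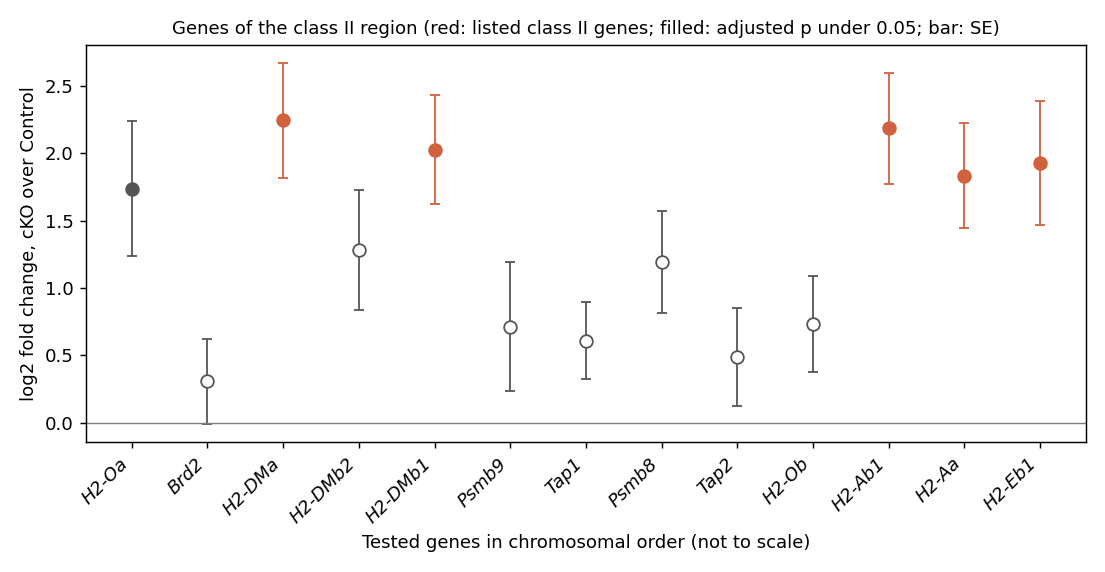
Log2 fold change (cKO over Control, bar is the SE) of the 13 tested genes of the class II stretch, in chromosomal order and not to scale. Red marks the listed class II genes and filled points an adjusted p under 0.05; the 5 listed genes lie between 1.83 and 2.25 and the 5 genes of other families between 0.308 and 1.19.

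Most genes of the wider class II pathway did not pass the test. Of 28 further genes of class II transcription, endosomal processing and costimulation, 24 were tested, 2 were higher, 1 was lower and 21 did not pass, with a median log2 fold change of 0.0228. These 2 are a share near the 7.5% of all genes. The count was 5 with library totals (15.4% of all tested genes higher). It was 1 with limma-voom (6.72%), without KO16 (8.71%) or without KO16 and KO20 (8.17%), and 0 with RLE factors (7.2%) or no filter (4.01%). It was also 0 without C10 (4.58%), C11 (6.84%), C13 (3.37%), C14 (3.77%), KO20 (4.77%) or C11 and C14 together (1.7%). H2-Oa was at 0.348 to 0.576 CPM in Control and 0.727 to 2.87 CPM in cKO libraries (1.74, SE 0.50, adjusted p = 0.0469), a call lost in 12 of 19 alternatives. Ctsd, the aspartic protease cathepsin D, rose from 597 to 621 CPM in Control to 881 to 1787 CPM in cKO libraries (0.99, SE 0.26, adjusted p = 0.0355), a call lost in 8 of 19. Lgmn, the asparagine-specific protease legumain, fell from 550 to 663 CPM to 255 to 376 CPM (-0.95, SE 0.21, adjusted p = 0.0163), a call lost in 6 of 19. The subunits of the promoter complex that recruits CIITA did not pass: Rfx5 was at -0.26 (adjusted p = 0.651), Rfxank at 0.02 (0.96), Rfxap at 0.02 (0.956), Nfya at -0.50 (0.209), Nfyb at -0.36 (0.275) and Nfyc at -0.35 (0.248).

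Of 12 tested genes between interferon gamma and Ciita, 1 was higher, 0 were lower and 11 did not pass (median log2 fold change 0.376), again near the 7.5% of all genes. The count was 5 with library totals (15.4% of all tested genes higher), and 3 with DESeq2 (11.1%) or without KO16, KO20 and C11 (29.5%). It was 0 without C13 (3.37%), C14 (3.77%), KO20 (4.77%) or C11 and C14 together (1.7%). The list median was 0.183 without KO16 and KO20. Spi1, encoding the myeloid factor PU.1, rose from 1.97 to 2.70 CPM in Control to 4.09 to 12.4 CPM in cKO libraries (1.76, SE 0.39, adjusted p = 0.0172), a call lost without C13 (0.056), C14 (0.0588), KO20 (0.058) or C11 and C14 together (0.17). Without KO16 and KO20 Spi1 was at 0.896. Socs1, a feedback inhibitor of the pathway, was at 1.64 (adjusted p = 0.0874), and at 0.701 without KO16 and KO20. Irf1 was at 0.25 (adjusted p = 0.516), and Ifng itself, at 0.0774 CPM in Control and 0.0978 CPM in cKO on average, had too few reads to be tested.

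Among 13 genes of MHC class I presentation 1 was higher, 0 were lower and 12 did not pass, with a median of 0.609, a share near the 7.5% of all genes. The count was 5 with library totals (15.4% of all tested genes higher) or without KO16, KO20 and C11 (29.5%). It was 4 without C11 (6.84%), and 3 with DESeq2 (11.1%), without KO18 (7.75%) or with the length trend removed (9.52%). It was 2 without KO19 (6.25%), and 0 without C14 (3.77%) or without C11 and C14 (1.7%). The median was 0.199 without KO16 and KO20. The 1 that rose was H2-K1, a classical class I heavy chain, from 149 to 184 CPM in Control to 317 to 741 CPM in cKO libraries (1.45, SE 0.30, adjusted p = 0.0127), a call lost without C14 (adjusted p = 0.0539) and without C11 and C14 (0.153). Its log2 fold change was 0.918 without KO16 and KO20. Psmb8, an immunoproteasome subunit, was at 1.19 (adjusted p = 0.067), and at 0.31 without KO16 and KO20.

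Most macrophage markers moved with these genes. Most markers of dendritic cells, B cells and endothelium did not pass, though 9 of 10 dendritic cell markers had a log2 fold change above 0. Of 14 macrophage markers 12 were higher, 0 were lower and 2 did not pass, beside 7.5% of all tested genes higher. Their median log2 fold change was 1.94. Cx3cr1 (1.34, SE 0.21, adjusted p = 0.00386), Adgre1, the F4/80 antigen (1.67, SE 0.27, adjusted p = 0.00417), C1qc (2.04, SE 0.36, adjusted p = 0.00604) and the mannose receptor gene Mrc1 (1.85, SE 0.34, adjusted p = 0.00728) had the smallest p-values. Csf1r (0.41, adjusted p = 0.445) and Mertk (-1.29, adjusted p = 0.0856) did not pass. The summed level of the 14 was 187 to 223 CPM in Control and 352 to 1170 CPM in cKO libraries, and that of the 9 class II genes 339 to 494 and 921 to 2290 CPM. Relative to the Control mean, the class II sum was 5.44, 2.19, 2.25 and 4.17 in KO16, KO18, KO19 and KO20. The macrophage sum was 5.92, 1.78, 1.96 and 4.41 in the same order, so the same pair of mice was high in both. Lyz2 alone held 592 of the 1167 CPM of the macrophage sum in KO16 and 392 of 869 CPM in KO20. In KO18 and KO19 it held 96.7 of 352 and 106 of 385 CPM. The size of the macrophage sum therefore rests largely on Lyz2 in KO16 and KO20. Without KO16 and KO20, 10 macrophage markers (median 1.17) and 7 class II genes were higher, beside 8.17% of all tested genes. Without C11 as well there were 12 and 9, beside 29.5% of all genes. Without C13 or without C14 there were 8 macrophage markers, beside 3.37% and 3.77% of all genes. Without C11 and C14 together there were 1 macrophage marker and 1 class II gene, beside 1.7% of all genes. The part of these markers in the class II result was not tested.

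Lists of other leukocytes were counted in the same way, beside the 7.5% of all tested genes that were higher. Of 10 dendritic cell markers 2 were higher and 8 did not pass: Flt3, the receptor that dendritic cell precursors depend on (1.60, SE 0.29, adjusted p = 0.00723), and Siglech of plasmacytoid dendritic cells (1.37, SE 0.36, adjusted p = 0.0338; lost in 10 of 18 alternatives). Control libraries held 10 to 17 reads of Flt3 and 5 to 10 of Siglech. Among the 8, Xcr1 (0.93), Clec9a (0.92), Batf3 (1.19) and Clec10a (1.18) had an unadjusted p under 0.05 in edgeR. Their adjusted p was 0.149 to 0.168, and 4160 of all 15382 tested genes had an unadjusted p under 0.05. Zbtb46 was at -0.10. The sum of the 10 was 18.6 to 22.6 CPM in Control and 24.2 to 34.7 CPM in cKO libraries. The count was 5 with library totals (15.4% of all tested genes higher), 4 without KO16, KO20 and C11 (29.5%) and 0 without C11 and C14 (1.7%). It was otherwise 1 or 2 (3.37% to 11.1%). The list median of 0.998 was 0.303 without KO16 and KO20. Of 5 pan-leukocyte genes 3 were higher, Laptm5 (1.18, adjusted p = 0.0118), Coro1a (1.62, adjusted p = 0.0463) and Cd52 (2.28, adjusted p = 0.04999). These calls were lost in 3, 11 and 12 of 19 alternatives. By edgeR, 0 of the 5 passed without C13, without C14 or without C11 and C14, when 3.37%, 3.77% and 1.7% of all tested genes were higher. Without KO16 and KO20 Coro1a was at 0.463 and Cd52 at 0.602. Ptprc stood at 0.47 (adjusted p = 0.341). Their sum was 39.7 to 53.4 CPM against 73.8 to 184 CPM.

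Markers of lymphocytes were low throughout, and their counts stand beside 7.5% of all tested genes higher. Of 7 B cell markers 5 were tested and 1 was higher, the immunoglobulin gene Ighm (1.80, SE 0.34, adjusted p = 0.00905). The B cell sum was 11.3 to 16.8 CPM in Control and 19.2 to 55.8 CPM in cKO, most of it Ighm. Of 7 T cell markers 6 were tested and 1 was higher, Cd4 (1.12, adjusted p = 0.044; lost in 10 of 19 alternatives), with sums of 4.43 to 6.90 and 4.58 to 15.7 CPM, and Cd3g was at 1.62 (adjusted p = 0.157). Of 5 neutrophil markers 3 were tested and 0 passed by edgeR, nor were any at an unadjusted p under 0.05, among them Csf3r (0.69, adjusted p = 0.205) and S100a9 (0.33, adjusted p = 0.827), with sums of 1.95 to 5.93 and 2.08 to 7.76 CPM.

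Endothelial cells of the kidney can also carry class II, and of 6 endothelial markers 0 were higher, 0 were lower and 6 did not pass, with log2 fold changes of -0.976 to -0.0812. Kdr was at -0.98 (adjusted p = 0.0717) and Pecam1 at -0.47 (adjusted p = 0.145). Both had an unadjusted p under 0.05 in edgeR and passed with DESeq2 (adjusted p = 0.0208 and 0.0337). The sums of the 6 were 330 to 447 CPM in Control and 260 to 322 CPM in cKO. Of the 8 markers of kidney tissue, Slc34a1 (-2.84, adjusted p = 0.00736) and Lrp2 (-1.81, adjusted p = 0.0244; lost in 5 of 19 alternatives) fell, Aqp2 rose (1.10, adjusted p = 0.0117) and 5 did not pass, with sums of 6780 to 14100 CPM in Control and 4500 to 6960 CPM in cKO. How far the smaller share of proximal tubule transcripts enters the class II levels was not tested.

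**Figure D5:**
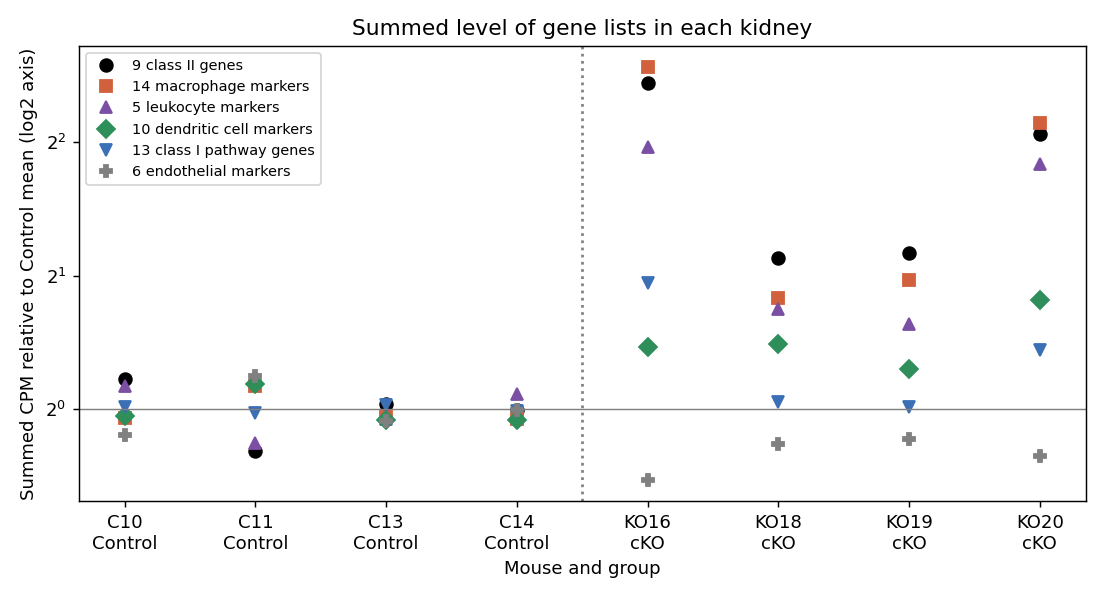
Summed CPM of 6 gene lists in each kidney, relative to the mean of the 4 Control kidneys (log2 axis). The 9 class II genes and the 14 macrophage markers rise together, to 5.44 and 5.92 in KO16, while endothelial markers lie below 1 in all 4 cKO kidneys. In KO16, Lyz2 alone holds 592 of the 1167 CPM of the macrophage sum.

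The genes outside these lists whose profile over the 8 libraries lay nearest to the mean profile of H2-Aa, H2-Ab1, H2-Eb1 and Cd74 were taken from 12898 protein-coding genes of at least 1 CPM. Nearness is the root mean square difference of log2 levels, each centred on its own mean over the 8 libraries. The first 8 were Serpinb6a (0.0939), the potassium channel gene Kcnk1 (0.0963), the retinol dehydrogenase gene Rdh12 (0.11), the calcium-binding protein gene S100a11 (0.134), Tax1bp3 (0.135), the adaptor gene Lat2 (0.137), Slc35g2 (0.141) and podoplanin, Pdpn (0.141), against a median of 1.1 over all candidates. All 8 had a log2 fold change between 1.65 and 1.88, which nearness to this profile requires. Lat2, an adaptor of myeloid and B cells, was at 2.19 ± 0.387 CPM in Control and 6.92 ± 2.93 CPM in cKO, and S100a11 at 63.6 ± 9.96 and 234 ± 95.0 CPM (SD, n = 4 each). Of the members, Ctss (0.149) lay as near as the chains themselves (0.161 to 0.212), H2-DMb1 (0.186) and H2-DMa (0.252) followed, and Cd86 (0.354), Cd74 (0.399) and Ciita (1.09) lay farthest.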

How the data were processed

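The deposited values are raw read counts per Ensembl gene, made by the authors, 1 library for each of 8 mice. Per the submitters' processing notes, cutadapt 1.3, STAR 2.4.0g and HTSeq 0.6.1 were used with build GRCm38. Which annotation release and strand setting they used is not given in the sources used here. Overlapping or antisense genes may therefore share reads. Per the labels' protocols, libraries were made from 500 ng of RNA with a stranded mRNA kit. GENCODE vM21 supplied symbols, positions and exonic lengths, and matched 46005 of 46517 identifiers. Lines that name no gene held 39.7% to 56.2% of each file's total and were left out.

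Genes were kept by filterByExpr (minimum count 10, total 15), leaving 15382, and tested with edgeR 4.0.16 (quasi-likelihood, TMM, R 4.3.3) on all 8 libraries with no covariate, with Benjamini-Hochberg adjustment over all tested genes and a threshold of 0.05. The script was tested on simulated data. No replicate pair agreed within sampling noise: the chi-square per degree of freedom between libraries of a group was at least 7.8. The alternatives were RLE, upper-quartile and no scaling factors, DESeq2 1.42.0, limma-voom (limma 3.58.1), other filters, removal of a smooth length trend per library and leaving out libraries. Leaving out C11 and C14 together was added after the data were seen.

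Members and lists were chosen with earlier results of these data known. Beside the 9 members, the text names from each list up to 4 genes that passed, by smallest p, or the 2 with the smallest p where fewer than 2 passed, and the 8 genes nearest in profile. The other genes named were chosen after their values were seen. A few genes of the lists are counted but not reported here by name. Promoter windows are RefSeq's, on GRCm38.p6.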

Additional observations from a re-analysis of the deposited data

Results flagged for a closer look

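In each group of 4 mice the highest and the lowest library were compared with the rest. This covered 112 combinations of a group with a gene or with a ratio between genes. In 8 of them 1 library lay far outside the other 3, and chance alone marks about 5% of such groups. For H2-Ea-ps, KO18 was at 0.288 CPM against 0 to 0.0422 in the other cKO libraries. C11 accounted for 4 of the 8 among Control libraries: Lgmn at 663 CPM against 550 to 569, Siglech at 0.201 CPM against 0.435 to 0.482, Slc34a1 at 6768 CPM against 2125 to 2856, and Lrp2 at 2402 CPM against 982 to 993. In C13, Cd4 was at 0.478 CPM against 0.820 to 0.887. Among cKO libraries, Cx3cr1 was at 8.86 CPM in KO18 against 12.9 to 13.1, and Csf3r at 2.03 CPM in KO19 against 1.22 to 1.27. None of the 9 class II genes was among them.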

How the results depend on the processing

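Of the 9 class II genes, 8 were higher in cKO kidneys under every other scaling, filter, tool and the length correction, 6 to 8 when 1 library was left out, and 1 without C11 and C14. Over all genes, the number passing (2170) was 9175 without KO16, KO20 and C11, 650 without C11 and C14, and 1106 to 2697 when 1 library was left out. The number higher (1154) was 2374 with library totals alone, 4689 and 275 in the same 2 sets, and 531 to 1363 when 1 library was left out. The share of calls that were higher was 53.2%, against 63.9% with upper-quartile factors, 81.2% with library totals and 42.3% without C11 and C14, and library totals moved the median of all genes to 0.344. The difference in H2-DMb1 over H2-Ab1 (-0.08) was -0.171 to 0.00183 when 1 library was left out, above 0 without C10, and 0.00051 without KO16 and KO20. Cd74 over H2-Ab1 was -0.0767 without KO16 and KO20 and 0.0549 without C11 as well, where Ciita over H2-Ab1 was -0.199 and H2-Ab1 over Csf1r 0.236. S100a9 changed sign with the length trend removed (-0.186), without KO16 (range -0.275 to 0.958 when 1 library was left out), without KO16 and KO20 (-1.23), without C11 as well (-1.57) and without C11 and C14 (-0.379), and Cd3g without KO16, KO20 and C11 (-0.254). The cause of these changes was not tested. No analysis paired by litter was possible, because the labels do not say which mice shared a litter. Of the 9 class II genes, depth limits Cd86 and Ciita most, with 189 and 337 reads over the Control libraries. Some other named genes had fewer, among them Socs1 (27), Siglech (35), H2-Oa (43), Flt3 (56), Cd3g (68) and Cd4 (70). Sets with fewer mice have less power.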
